A study of Rattus norvegicus with 10 samples.

Results

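Neutrophil nuclei were examined in rat heart muscle 24 h after left coronary artery ligation, in 1 library of single nuclei from animals given BT2 at 100 mg/kg and 1 library from animals given vehicle. A nucleus was taken as a neutrophil nucleus when it held at least 500 UMIs (unique molecular identifiers, each standing for 1 captured RNA molecule), at least 3 UMIs of Csf3r, Cxcr2, Nlrp12, Il1r2 and Clec4d together, and at most 1 UMI of Flt1, Pdgfra and Csf1r together. The last 3 genes mark endothelial cells, fibroblasts and macrophages. The rule selected 834 of 22037 nuclei, 217 of 10497 in the BT2 library and 617 of 11540 in the vehicle library. Since measured counts chose the nuclei, the levels of these genes and the genes that lead the selected nuclei are given as a description, with no test.

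All samples came from the area at risk (AAR), the muscle fed by the ligated artery. BT2, given here by its code name, is a small molecule. The series also holds 8 libraries of polyadenylated RNA from whole AAR tissue, 2 from rats given BT2 and 2 from rats given vehicle at 4 h, and the same at 24 h. The labels do not state the dose for tissue, nor the number, sex and age of the rats behind a library. Hours run from the ligation in the sample titles and from the ischaemia-reperfusion injury in the series text. With 1 nuclear library per group, every difference between BT2 and vehicle nuclei is a difference between 2 libraries, with no replicate check. The intervals printed for nuclei are exact 95% intervals that cover counting error only.

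Neutrophils are short-lived granulocytes made in the bone marrow and are among the first leukocytes to enter injured heart muscle. They are released and kept alive by granulocyte colony-stimulating factor acting on Csf3r, and follow chemokines through Cxcr2. They carry preformed granules and large amounts of the calcium-binding proteins S100a8 and S100a9. Granule proteins are made mostly in the marrow, whereas receptors, cytokines and interferon-induced genes are transcribed in the mature cell. Nuclear RNA reports mainly transcripts being made or not yet exported, so a protein stored in granules can be abundant while its RNA is rare.

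The promoters of the rule's genes, and of S100a9 as the neutrophil marker outside the rule with the highest mean level, are shown because these genes define and lead the nuclei. Each line gives the 250 bases before the gene's start from RefSeq (GRCr8), 5′ to 3′ on the gene's strand, with capitals marking GAGGAA or its reverse complement TTCCTC, the core of sites bound by the myeloid factor PU.1. The windows are chr5:143582970-143583219 on the + strand for Csf3r, chr9:83178395-83178644 on the + strand for Cxcr2, chr1:74847972-74848221 on the + strand for Nlrp12, chr4:158275093-158275342 on the + strand for Clec4d and chr2:178490623-178490872 on the - strand for S100a9. Of 11 genes looked up by symbol, 8 were in the table; Il1r2, S100a8 and Padi4 were not.
Csf3r: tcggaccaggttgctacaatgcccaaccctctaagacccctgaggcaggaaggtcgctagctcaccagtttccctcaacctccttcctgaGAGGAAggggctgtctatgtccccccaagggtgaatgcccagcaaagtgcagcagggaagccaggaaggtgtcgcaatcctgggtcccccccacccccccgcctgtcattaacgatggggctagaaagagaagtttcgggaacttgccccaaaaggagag
Cxcr2: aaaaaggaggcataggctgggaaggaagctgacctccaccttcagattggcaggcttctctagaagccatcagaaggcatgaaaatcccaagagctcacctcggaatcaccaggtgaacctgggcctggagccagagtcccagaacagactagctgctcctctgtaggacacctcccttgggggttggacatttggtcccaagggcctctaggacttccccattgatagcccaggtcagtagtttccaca
Nlrp12: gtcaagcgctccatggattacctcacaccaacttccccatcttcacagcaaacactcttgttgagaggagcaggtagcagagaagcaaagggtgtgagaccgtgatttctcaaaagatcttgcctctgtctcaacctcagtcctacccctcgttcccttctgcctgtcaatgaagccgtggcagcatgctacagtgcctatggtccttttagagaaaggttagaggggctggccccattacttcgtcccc
Clec4d: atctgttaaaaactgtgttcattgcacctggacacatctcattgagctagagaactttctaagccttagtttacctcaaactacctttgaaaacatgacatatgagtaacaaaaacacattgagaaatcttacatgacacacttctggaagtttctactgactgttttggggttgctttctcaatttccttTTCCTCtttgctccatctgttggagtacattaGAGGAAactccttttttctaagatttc
S100a9: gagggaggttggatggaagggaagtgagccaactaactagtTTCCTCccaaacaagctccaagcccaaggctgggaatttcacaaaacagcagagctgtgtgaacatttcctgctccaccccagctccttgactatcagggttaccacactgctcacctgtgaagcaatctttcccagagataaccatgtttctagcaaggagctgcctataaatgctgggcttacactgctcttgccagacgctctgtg
The motif occurred in Csf3r, 160 bases before the start, at 59 and 27 bases before the start in Clec4d, and at 209 bases before the start in S100a9. It was not found in the windows of Cxcr2 and Nlrp12. On both strands together, 23.2% of 27457 promoters of the same length held it. TTGCNNAA, searched on both strands as a form of the core bound by C/EBP factors, was in 9.2% of those promoters and in none of the 5 windows shown. The matches describe letters in these windows and were not tested as binding sites.

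Of the 27 neutrophil markers that the rule did not use, 16 had at least 10 UMIs over both libraries and 6 had none in either. S100a9 was at 632 CPM (UMIs per 1000000 UMIs summed over the neutrophil nuclei of a library) in BT2 and 256 CPM in vehicle nuclei, against 27.5 CPM in all other BT2 nuclei and 24.6 CPM in all other vehicle nuclei. Padi4, which citrullinates histones, was at 48.1 and 72.2 CPM, and Mmp8, the neutrophil collagenase, at 58.6 and 40.4 CPM in BT2 and vehicle nuclei. All 3 were at least 10.4-fold above the other nuclei in both libraries. The nuclei were chosen on counts from the same cells, so these folds are a description.

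Several granule proteins that are transcribed early in neutrophil development were at or near 0. Ltf, Ngp, Mpo, Prtn3, Ctsg and Bpi had no UMI in the neutrophil nuclei of either library, where 3 UMIs would be 6.28 CPM in BT2 and 2.33 CPM in vehicle. Camp had 1 UMI in BT2 and 0 in vehicle nuclei, Cebpe 0 and 1, Lcn2 0 and 2, and Elane 2 and 6. Other neutrophil markers were absent or sparse as well. Cxcr1, a chemokine receptor, Cd177, a surface protein of neutrophils, and Hdc, which makes histamine, had no UMI, Selplg had 0 in BT2 and 6 in vehicle nuclei, Fpr2 2 and 10, and Mmp9 3 and 12. None of the 27 markers had a UMI in 43 of the 217 BT2 and 115 of the 617 vehicle nuclei.

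Markers of other cells were also counted. Epx, the eosinophil peroxidase, Fcer1a and Ms4a2, subunits of the mast cell and basophil IgE receptor, and Cma1, a mast cell chymase, had no UMI, and Ccr3, the eosinophil eotaxin receptor, had 3 in BT2 and 12 in vehicle nuclei. Those 4 were the members of the list of 12 eosinophil, basophil and mast cell genes without a UMI in either library, while Kit had 4 in BT2 and 44 in vehicle nuclei and Gata2 4 and 20. Siglec5, also on that list, had the most, with 36 and 156 UMIs. The summed list was at 107 CPM in BT2 and 183 CPM in vehicle neutrophil nuclei, against 63.9 and 81.2 CPM in all other nuclei. The T cell gene Cd3e had 0 and 1 UMI and Cd3g none. Other genes of the lymphocyte list had more, with 42 UMIs in BT2 and 193 in vehicle nuclei for Skap1, 15 and 52 for Bank1, 5 and 26 for Cd4 and 5 and 16 for Themis. Summed cardiomyocyte genes were at 9994 CPM in BT2 and 11170 CPM in vehicle neutrophil nuclei, against 91269 CPM and 83989 CPM in cardiomyocyte nuclei. Of these UMIs, 87.6% in BT2 and 88.9% in vehicle lay in 15 and 42 nuclei that had over 1% of their UMIs on those genes. Those nuclei were not removed; doublets were not called.

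The selected nuclei were of moderate depth. The median nucleus held 1649 UMIs and 1058 genes in BT2 and 1463 UMIs and 946 genes in vehicle, against 2137 and 2449 UMIs over all nuclei of the BT2 and vehicle libraries. The neutrophil nuclei held 477772 UMIs in BT2 and 1287644 UMIs in vehicle, 1.46% and 2.83% of each library. The exclusion genes removed 315 of 532 BT2 and 710 of 1327 vehicle nuclei that had at least 3 marker UMIs. The libraries shared 37 cell barcodes, none of them in a BT2 neutrophil nucleus and 3 in vehicle neutrophil nuclei.

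The share of neutrophil nuclei was lower in the BT2 library. They made up 2.07% of BT2 nuclei (95% Clopper-Pearson interval 1.80% to 2.36%) and 5.35% of vehicle nuclei (4.94% to 5.77%). The ratio of BT2 to vehicle was 0.387, with a counting interval of 0.330 to 0.452. It lay between 0.318 and 0.470 under 9 other choices of nuclei, from a marker sum of at least 2 UMIs to nuclei with few UMIs of other cell types. With the vehicle library thinned to the median depth of the BT2 library, 554 vehicle nuclei passed and the ratio was 0.431. Each library is 1 sample and the labels do not describe how nuclei were isolated, so this ratio has no test.

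**Figure D1:**
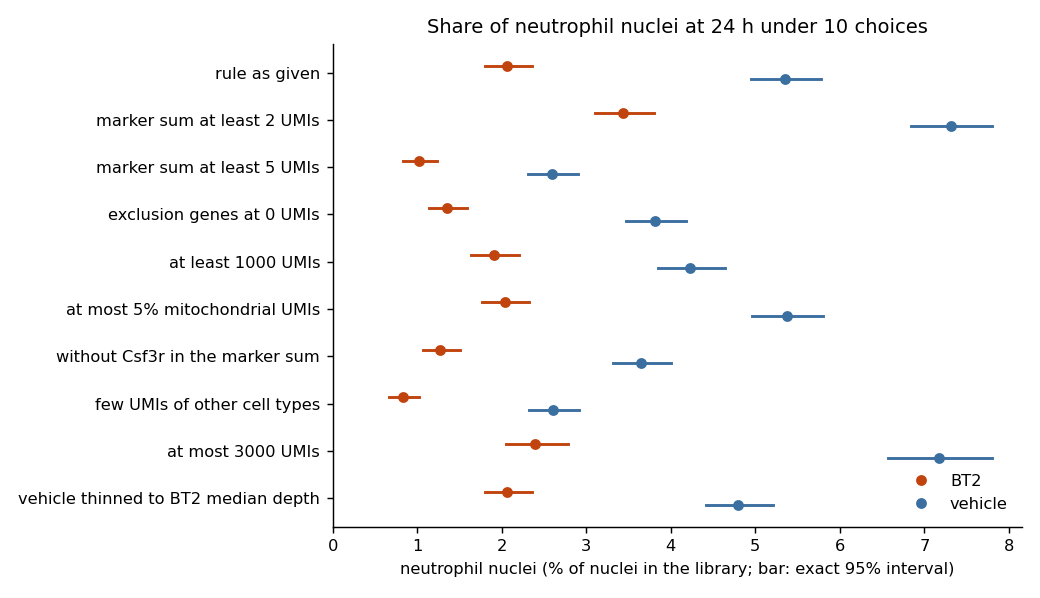
Share of nuclei that met the neutrophil rule, in percent of all nuclei of the library (x axis), for BT2 above vehicle at each of 10 choices of nuclei (y axis); bars are exact 95% binomial intervals, which cover counting error only. The BT2 share is the lower of the pair at every choice, from 0.829% against 2.61% with few UMIs of other cell types to 3.44% against 7.31% at a marker sum of at least 2 UMIs.

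The rule's genes were carried in much the same mix in both libraries. Csf3r had a UMI in 79.7% of BT2 and 73.3% of vehicle neutrophil nuclei. Clec4d, a C-type lectin receptor, had one in 52.5% and 54.1%, Il1r2, the interleukin-1 decoy receptor, in 48.4% and 47.6%, Cxcr2 in 46.1% and 46.7%, and Nlrp12, a NOD-like receptor of myeloid cells, in 44.7% and 53.3%. Only 1 of the 5 genes was detected in 17 BT2 and 53 vehicle nuclei, and all 5 in 15 and 28. The median marker sum was 4 UMIs in each library, with a highest sum of 27 in BT2 and 38 in vehicle nuclei.

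Nuclei just outside the rule differed by degree from those just inside. At a marker sum of 2 UMIs, outside the rule, there were 144 BT2 and 227 vehicle nuclei, and at a sum of 3, inside it, 70 and 184. The 27 other neutrophil markers summed to 480 CPM in BT2 and 669 CPM in vehicle nuclei at a sum of 2, and to 811 and 896 CPM at a sum of 3. At 8 or more marker UMIs they reached 5511 CPM in 45 BT2 nuclei and 2577 CPM in 108 vehicle nuclei. Without the nucleus richest in S100a9 in each library, these markers were at 3830 and 2545 CPM there. At 0 marker UMIs they stood at 96.2 CPM in BT2 and 124 CPM in vehicle nuclei. The level thus climbed with the marker sum in both libraries with no gap at the threshold.

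**Figure D2:**
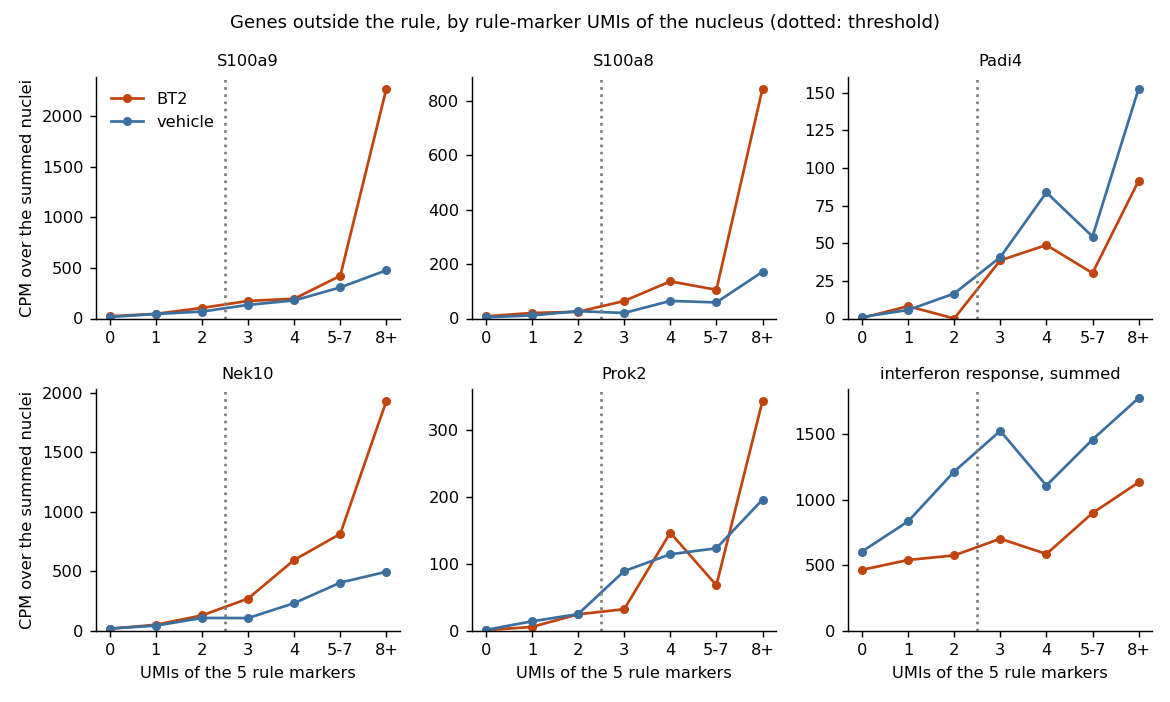
CPM (y axis) of S100a9, S100a8, Padi4, Nek10, Prok2 and the summed interferon response list against the number of rule-marker UMIs per nucleus (x axis, 7 bins), for BT2 and vehicle nuclei with at most 1 exclusion UMI; the dotted line marks the threshold of 3 UMIs. S100a9 reaches 2275 CPM in BT2 and 477 CPM in vehicle nuclei in the highest bin, or 1206 and 438 CPM without the nucleus richest in S100a9 in each library, while the interferon list is lower in BT2 in all 4 bins inside the rule.

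The genes that led the nuclei were of several kinds, from surface receptors and lectins to enzymes and secreted proteins. By the smaller of the folds over all other nuclei in the 2 libraries, the first 8 were Nlrp12, Il1r2, Padi4, Prok2, Vstm1, Cxcr2, Clec4d and Csf3r, which include the 5 genes of the rule. Prok2, a secreted prokineticin made by neutrophils, was at 123 CPM in BT2 and 123 CPM in vehicle nuclei, 39.7-fold and 17.3-fold above the other nuclei. Further down came Fcar, an IgA Fc receptor, Scube1, Mmp8, S100a9, Nek10, a NIMA-related kinase, Mov10, an RNA helicase, and Clec7a, the beta-glucan receptor dectin-1. Siglec5 and Siglec8, sialic acid-binding lectins, were also among the 25, and reads of such close paralogs can be shared, so their counts are uncertain.

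Against monocyte and macrophage nuclei, of which there were 1160 in BT2 and 2059 in vehicle, the same rule named most of these genes again and added Bmx, S100a8, Il1b, Ifit1, Sorl1, Chi3l1 and Lilrc2. The monocyte and macrophage nuclei were chosen with at most 1 UMI of the 5 rule genes together. The lead of the rule genes there was thus fixed by the choice of nuclei, and the list is a description. Il1b, the cytokine precursor, was 18.4-fold above those nuclei in BT2 and 13.9-fold in vehicle. Alox5ap, needed for leukotriene synthesis, was only 4.84-fold and 3.72-fold above them.

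Within the leading genes, the 2 libraries differed for a minority. Nek10 had 795 CPM in BT2 and 294 CPM in vehicle nuclei, a ratio of 2.71 (2.34 to 3.13), against 0.955 in all other nuclei. Scube1 had 85.8 and 43.5 CPM, a ratio of 1.97 (1.29 to 3.01). Ptpn18, a tyrosine phosphatase, was lower, with 280.5 CPM in BT2 and 516 CPM in vehicle nuclei, a ratio of 0.544 (0.448 to 0.656), but it was also lower in the other nuclei, at 0.418. Fcar had a ratio of 0.649 (0.502 to 0.831) and Siglec5 of 0.622 (0.420 to 0.898). Prok2, at 1.01, and Mov10, with 645 CPM in BT2 and 642 CPM in vehicle nuclei, were nearly equal.

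Nek10 was detected in more nuclei as well as at a higher level. It had a UMI in 41.9% of BT2 and 20.7% of vehicle neutrophil nuclei. With every nucleus thinned to 500 UMIs the shares were 27.2% and 11.8%, against 1.33% and 0.898% in cardiomyocyte nuclei. Cardiomyocyte nuclei should lack neutrophil genes, and they were chosen with at most 1 UMI of the rule's genes. Their median depths were 3256 UMIs in BT2 and 5895 UMIs in vehicle. Without the nucleus with the most Nek10 UMIs in each library the ratio was 2.76, and in nuclei with few UMIs of other cell types it was 2.16.

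Across all genes, 6611 had at least 30 UMIs in the neutrophil nuclei of the library with the higher CPM. Of these, 126 (1.91%) were past 2-fold higher and 333 (5.04%) past 2-fold lower in BT2, and the median ratio was 0.963, against 0.949 in the other nuclei. The excess of lower genes was tied to the filter, since 30 UMIs are 62.8 CPM in BT2 and 23.3 CPM in vehicle nuclei. With 1 CPM floor for both libraries, chosen after these counts were seen, 3994 genes were left, with 112 (2.80%) past 2-fold higher and 89 (2.23%) past 2-fold lower. Of the genes past 2-fold, 19 of the 126 higher and 59 of the 333 lower were past 2-fold the same way in all other nuclei.

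**Figure D3:**
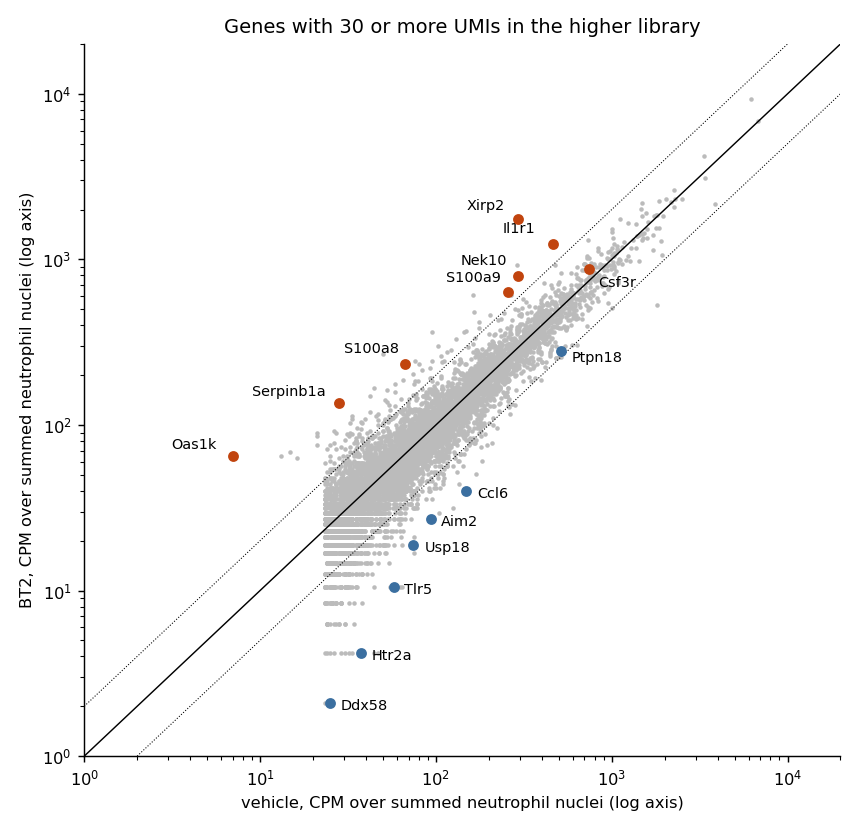
CPM in BT2 (y axis) against vehicle (x axis) neutrophil nuclei, both on log axes, for the 6611 genes with at least 30 UMIs in the higher library; dotted lines mark a 2-fold difference either way and labelled points are genes named in the text. S100a9, S100a8, Nek10 and Il1r1 lie above the upper line, with Il1r1 at 1243 CPM in BT2 and 463 CPM in vehicle.

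Serpinb1a, an inhibitor of neutrophil serine proteases, had one of the largest ratios, with little difference in the other nuclei. It had 136 CPM in BT2 and 28.0 CPM in vehicle nuclei, a ratio of 4.87 (3.19 to 7.53), against 1.12 in the other nuclei. It had a UMI in 16.6% of BT2 and 4.05% of vehicle neutrophil nuclei, and in 0.796% and 0.898% of cardiomyocyte nuclei. In nuclei with few UMIs of other cell types the ratio was 11.2 (5.03 to 28.3), from 30 UMIs in BT2 and 8 in vehicle. Oas1k, of the oligoadenylate synthetases, had 64.9 and 6.99 CPM, a ratio of 9.28 from 31 and 9 UMIs, and is uncertain because its paralog Oas1a can share its reads.

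Other genes of high ratio are expressed by other heart cells, and most were also higher in the other BT2 nuclei. Pkhd1l1 had a ratio of 9.58 (other nuclei 2.303), Bmp6, a growth factor of endothelium, 5.39 (1.83), and Postn, the fibroblast matrix protein periostin, 5.01 (2.04). Wbscr17 had 4.91 (2.51), Cgnl1 4.09 (2.02) and Prickle1 3.84 (1.82). Gdpd1, at 4.68, and Reep1, at 3.85, had 0.991 and 1.26 in the other nuclei. Xirp2, a muscle actin-binding protein, had 1744 CPM in BT2 and 291 CPM in vehicle nuclei, but 636 of its 833 BT2 UMIs lay in 2 nuclei. In nuclei with few UMIs of other cell types its ratio was 1.37.

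The lowest ratios rested on few BT2 molecules. Tlr5, the flagellin receptor, had 10.5 CPM in BT2 and 57.5 CPM in vehicle nuclei, 5 against 74 UMIs, a ratio of 0.182 (0.0574 to 0.444). It was 0.427 in the other nuclei, and 0.143 in nuclei with few UMIs of other cell types. Htr2a, a serotonin receptor, had 2 UMIs in BT2 and 48 in vehicle nuclei, a ratio of 0.112 (0.0132 to 0.428), whereas it was higher in the other BT2 nuclei, at 3.24. Ddx58, the RNA sensor RIG-I, and RT1-S3, a class I histocompatibility gene with close paralogs, each had 1 UMI in BT2 and 32 in vehicle nuclei.

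Further low ratios were those of Tmem140 (0.166, from 5 and 81 UMIs), Cdh20 (0.0898) and Pdk4 (0.0946), a mitochondrial kinase whose ratio was also low in the other nuclei, at 0.291. Cox17, Taf5l, Cd247, Lrp4 and Fam111a had 2 BT2 UMIs each, with ratios of 0.131 to 0.180. Fam111a was lower still in the other nuclei, at 0.0885. These values are counts of single molecules and each interval is wide.

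Granule and S100 genes split between the calprotectin genes and the rest. S100a9 had a ratio of 2.47 (2.10 to 2.89), from 302 UMIs in BT2 and 330 in vehicle nuclei, against 1.12 in the other nuclei. S100a8, its partner, had 234 CPM in BT2 and 66.8 CPM in vehicle nuclei, a ratio of 3.51 (2.63 to 4.70), against 1.42. Both genes were also higher in BT2 in monocyte and macrophage nuclei, S100a9 at 22.0 and 14.7 CPM and S100a8 at 9.94 and 4.73 CPM. In cardiomyocyte nuclei S100a9 was at 10.2 and 6.32 CPM and S100a8 at 6.42 and 2.53 CPM. In nuclei with at least 2 UMIs of Treml4, S100a9 was at 36.9 and 15.3 CPM and S100a8 at 9.21 and 10.2 CPM. A single BT2 neutrophil nucleus held 97 of the S100a9 UMIs and 38 of the S100a8 UMIs, with 13 of Retnlg and 13 of Nek10. Without the nucleus richest in each gene in each library the ratios were 1.72 for S100a9 and 2.43 for S100a8.

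The higher S100 level was also seen as a larger share of nuclei with the RNA. S100a9 had a UMI in 37.8% of BT2 and 27.1% of vehicle neutrophil nuclei, and thinned to 500 UMIs in 18.9% and 11.5%. Cardiomyocyte nuclei had 4.64% and 4.19% unthinned, and 0.928% and 0.749% thinned. S100a8 had a UMI in 19.4% of BT2 and 11.2% of vehicle neutrophil nuclei. In nuclei with few UMIs of other cell types the ratios were 1.85 (1.43 to 2.38) for S100a9 and 1.86 (1.15 to 2.96) for S100a8.

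The other granule genes did not share this direction as a group. Of 9 with at least 10 UMIs beside S100a8 and S100a9, 3 had a ratio above 1 and 6 below, with a median of 0.856. Over all 10866 genes with at least 10 UMIs the median was 0.978 and 52.7% were below 1. The summed list without S100a8 and S100a9 was at 1.01 (0.878 to 1.17). Of the 8 granule genes with at least 30 UMIs, S100a8 and S100a9 were the 2 past 2-fold, both higher, against 1.91% of all genes. Chi3l1, a chitinase-like protein, had 147 CPM in BT2 and 90.9 CPM in vehicle nuclei, a ratio of 1.61 (1.18 to 2.19). Lyz2, lysozyme, had 224 and 262 CPM, a ratio of 0.856 (0.682 to 1.07). Cybb, the catalytic oxidase subunit, had 29.3 and 49.7 CPM, a ratio of 0.590 with an interval that includes 1 (0.305 to 1.06).

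The 16 other neutrophil markers with at least 10 UMIs were evenly divided, 8 above and 8 below 1. Trem3, an activating myeloid receptor, had 52.3 CPM in BT2 and 97.1 CPM in vehicle nuclei, a ratio of 0.539 (0.336 to 0.833), and Trem1 had 18.8 and 43.5 CPM, a ratio of 0.433 (0.188 to 0.882). In all other nuclei Trem3 stood at 0.439 and Trem1 at 0.429. Alox5ap had 306 and 272 CPM, a ratio of 1.12, and Lrg1, a secreted glycoprotein of granulocytes, had 105 and 73.0 CPM, a ratio of 1.43 with an interval of 0.996 to 2.04.

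Receptors for chemoattractants and growth factors were mostly below 1. Of the 15 genes of this list with at least 10 UMIs, 3 were above 1 and 12 below, with a median of 0.782 and none of 11 past 2-fold. Over all genes with at least 10 UMIs, 52.7% were below 1. Csf3r had 879 CPM in BT2 and 746 CPM in vehicle nuclei, a ratio of 1.18 (1.05 to 1.32), and Cxcr2 had 345 and 386 CPM, a ratio of 0.895 (0.746 to 1.07). Both were counted by the rule, which holds their levels up. Ccr1, a receptor for several CC chemokines, had 259.5 CPM in BT2 and 237 CPM in vehicle nuclei, a ratio of 1.10. Ifngr1, a subunit of the interferon gamma receptor, had 335 and 460 CPM, a ratio of 0.728 (0.608 to 0.869). The summed list was at 0.932 (0.871 to 0.997), or 0.816 (0.741 to 0.897) without Csf3r and Cxcr2, and the whole list was at 0.614 in all other nuclei.

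Adhesion and migration genes were carried at high nuclear levels. Dock2, a Rac activator of leukocyte migration, had 982 CPM in BT2 and 1423 CPM in vehicle nuclei, a ratio of 0.690 (0.622 to 0.764). Elmo1, its partner, had 946 and 1086 CPM, a ratio of 0.871, and Skap2, an adaptor of integrin signalling, 716 and 888 CPM, a ratio of 0.806. Cd44, the hyaluronan receptor, was higher in BT2, with 869 and 700 CPM and a ratio of 1.24 (1.10 to 1.40), while Itgb1, an integrin chain, was at 1.47 (1.24 to 1.74), but at 0.856 (0.493 to 1.42) in nuclei with few UMIs of other cell types. Pecam1 had a ratio of 1.53 (1.24 to 1.87) and is also an endothelial gene. Ceacam1 was the 1 of 19 past 2-fold, with 5 UMIs in BT2 and 37 in vehicle nuclei, a ratio of 0.364. Over all genes, 5.04% were past 2-fold lower.

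Sensors of microbial and damage signals leaned to the vehicle library. Of 21 genes with at least 10 UMIs, 3 were above 1 and 18 below, with a median of 0.836, and 2 of 12 were past 2-fold lower. Over all genes, 52.7% with at least 10 UMIs were below 1, and 5.04% with at least 30 were past 2-fold lower. The summed list was at 0.871 (0.810 to 0.936) in neutrophil nuclei and at 0.682 in all other nuclei. It includes Clec4d, at 0.979, and Nlrp12, at 0.984, which were counted by the rule, and the rule holds their levels up. The 2 past 2-fold were Trem1, an amplifier of inflammatory signals, at 0.433, and Aim2, the sensor of cytosolic DNA. Aim2 had 27.2 CPM in BT2 and 93.2 CPM in vehicle nuclei, a ratio of 0.292 (0.151 to 0.518), against 0.379 in the other nuclei. Nlrp3, the inflammasome sensor, had 184 and 256 CPM, a ratio of 0.721 (0.563 to 0.915), and Clec7a had 289 and 329 CPM, a ratio of 0.879. Mefv, which encodes pyrin, and Myd88, the adaptor of toll-like and interleukin-1 receptors, had ratios of 1.33 and 1.44, with intervals that include 1.

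The interleukin-1 system held a difference at a high nuclear level. Il1r1, the signalling receptor, had 1243 CPM in BT2 and 463 CPM in vehicle nuclei, a ratio of 2.69 (2.39 to 3.01), against 1.11 in the other nuclei. It had a UMI in 72.4% of BT2 and 40.0% of vehicle neutrophil nuclei, and thinned to 500 UMIs in 40.1% and 16.9%. Cardiomyocyte nuclei had 29.6% and 19.9% unthinned and 6.76% and 4.19% thinned, so the share was higher in BT2 there as well. The summed interleukin-1 list was also higher in BT2 in cardiomyocyte nuclei, at 187 and 117 CPM. In monocyte and macrophage nuclei it was at 582 and 458 CPM. Il1r1 is not particular to neutrophils here, since all other nuclei held 1060 CPM in BT2 and 956 CPM in vehicle. In nuclei with few UMIs of other cell types the ratio was 3.16 (2.54 to 3.93).

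The other members of that family did not follow Il1r1 as a group, with 1 of 8 above 1, a median of 0.730 and a summed ratio of 0.961 (0.879 to 1.05). Il1rap, the co-receptor, had 500 CPM in BT2 and 388 CPM in vehicle nuclei, a ratio of 1.29 (1.10 to 1.51), near the 1.22 of the other nuclei. Il1r2, which binds interleukin-1 without signalling and was counted by the rule, had 507 and 561 CPM, a ratio of 0.902 (0.777 to 1.05). Il1b had 203 and 263 CPM, a ratio of 0.771 (0.609 to 0.969), with a UMI in 24.0% of BT2 and 29.2% of vehicle nuclei.

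Chemokine transcripts were sparse and did not all go the same way. Ccl6, a CC chemokine of rodents, had 39.8 CPM in BT2 and 148 CPM in vehicle nuclei, a ratio of 0.268 (0.158 to 0.430), against 0.395 in the other nuclei. It had a UMI in 8.29% and 21.2% of the nuclei, and thinned in 2.76% and 9.40%. Cxcl2, a ligand of Cxcr2, had 8 UMIs in BT2 and 67 in vehicle nuclei, a ratio of 0.322 (0.133 to 0.671), and Ccl3 had 6 and 49 UMIs, a ratio of 0.330 (0.116 to 0.771). Those 3 were the members past 2-fold, of 7 with at least 30 UMIs, against 5.04% of all genes past 2-fold lower. In all other nuclei Cxcl2 had 283 UMIs in BT2 and 929 in vehicle, and Ccl3 had 182 and 429, before scaling to library depth. Ccl2, a monocyte chemoattractant, had 17 UMIs in BT2 and 30 in vehicle nuclei, a ratio of 1.53 (0.790 to 2.86), and Cxcl1, another ligand of Cxcr2, had 14 and 26 UMIs, a ratio of 1.45 (0.7004 to 2.88). Tnf had no UMI in either library.

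Vegfa, the endothelial growth factor, and Csf1, the macrophage growth factor, lay closer to 1. Vegfa had 222 CPM in BT2 and 246 CPM in vehicle nuclei, a ratio of 0.901, and Csf1 had 149 and 124 CPM, a ratio of 1.20, with intervals that include 1. Over the 13 cytokine and chemokine genes with at least 10 UMIs, 3 were above 1 and 10 below, against 52.7% below 1 over all genes. The summed list was at 0.762 (0.667 to 0.869) in neutrophil nuclei and at 1.13 in all other nuclei. Vegfa and Csf1 had the most UMIs of the list in the other nuclei, 9648 and 6551 in BT2 and 12028 and 5931 in vehicle. In monocyte and macrophage nuclei the list was at 544 CPM in BT2 and 559 CPM in vehicle, and in cardiomyocyte nuclei at 1313 and 1488 CPM. The lower value in BT2 was thus not particular to neutrophil nuclei.

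Interferon response genes lay almost all on the vehicle side. Of 23 with at least 10 UMIs, 22 were below 1 and 1 above, with a median of 0.564, and 12 had intervals below 1. Over all 10866 genes with that many UMIs, 52.7% were below 1 and 8.24% had intervals below 1. The summed list was at 810 CPM in BT2 and 1458 CPM in vehicle nuclei, a ratio of 0.555 (0.497 to 0.620), against 0.660 in all other nuclei. In nuclei with few UMIs of other cell types it was 0.508. This pattern is thus shared in direction with the rest of the library.

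Among single interferon genes, Rnf213, a large ubiquitin ligase, had 117 CPM in BT2 and 263 CPM in vehicle nuclei, a ratio of 0.445 (0.329 to 0.592). Parp14 had a ratio of 0.564, Herc6 of 0.553 and Usp18, a negative regulator of interferon signalling, of 0.253, from 9 UMIs in BT2 and 96 in vehicle nuclei. Isg15 had 0 UMIs in BT2 and 14 in vehicle nuclei. Oas1a went the other way, with 9 and 5 UMIs, but shares sequence with Oas1k. Usp18 and Isg15, like Aim2, Cxcl2 and Ccl3, fall outside the rule for named genes and were chosen after their values were seen.

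Most neutrophil nuclei held some RNA of the interferon list, with a UMI in 71.9% of BT2 and 78.0% of vehicle nuclei. At least 5 UMIs of the list were found in 17 BT2 nuclei (7.83%) and 116 vehicle nuclei (18.8%). The tenth of nuclei with the most such UMIs held 36.7% of them in BT2 and 46.2% in vehicle. The same share was 43.3% in BT2 and 41.5% in vehicle for cardiomyocyte nuclei, and 49.1% and 48.1% for the cytokine and chemokine list in neutrophil nuclei. Thinned to 500 UMIs, 38.2% of BT2 and 45.7% of vehicle neutrophil nuclei had a UMI of the list, against 10.1% and 11.8% of cardiomyocyte nuclei. By marker sum, the list was at 702 CPM in BT2 and 1525 CPM in vehicle nuclei at a sum of 3 and at 1132 and 1775 CPM at 8 or more.

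Genes of the oxidative burst and of extracellular traps mostly leaned to vehicle, with 8 of 11 below 1, against 52.7% of all genes with at least 10 UMIs. The summed list was at 0.870 (0.790 to 0.957) in neutrophil nuclei and at 0.577 in all other nuclei. Ncf1, a subunit of the phagocyte oxidase, had 100.5 CPM in BT2 and 174 CPM in vehicle nuclei, a ratio of 0.578 (0.414 to 0.792), while Ncf4 was near equal, with 159 and 163 CPM. Alox5, the 5-lipoxygenase, was at 0.499 (0.267 to 0.873) from 15 and 81 UMIs. Sod2, the mitochondrial superoxide dismutase, was the 1 gene past 2-fold higher, with 94.2 and 37.3 CPM and a ratio of 2.53 (1.64 to 3.88), against 1.06 in the other nuclei.

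Survival genes leaned the same way as the library as a whole. Of 19 with at least 10 UMIs, 16 were below 1, against 52.7% of all genes with that many. The summed list was at 0.786 in neutrophil nuclei and 0.751 in the others. Bcl2l1, which encodes the anti-apoptotic protein Bcl-xL, had 519 CPM in BT2 and 733 CPM in vehicle nuclei, a ratio of 0.708 (0.613 to 0.815). Cflar, an inhibitor of caspase-8 activation, had 274 and 397 CPM, a ratio of 0.691 (0.566 to 0.839). Bcl2a1, a survival factor of granulocytes, had 23.0 and 45.8 CPM, a ratio of 0.502 (0.238 to 0.966).

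Hypoxia and glycolysis genes were evenly spread, with 12 of 23 above 1, against 47.3% of all genes. Their summed ratio was 0.931 in neutrophil nuclei and 0.935 in the others. Pkm, the pyruvate kinase, had 310 CPM in BT2 and 344 CPM in vehicle nuclei, and Hif1a had 270 and 313 CPM. Slc16a3, the lactate exporter, was the 1 of 18 past 2-fold, against 5.04% of all genes past 2-fold lower. It had 31.4 and 74.6 CPM, a ratio of 0.421 (0.227 to 0.730), against 0.663 in the others. Gapdh had 48.1 and 24.9 CPM, a ratio of 1.94 (1.08 to 3.42).

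Transcription factors summed slightly below 1, near their ratio in the other nuclei. Of 19 with at least 10 UMIs, 8 were above 1 and 11 below, against 52.7% of all genes below 1. Intervals lay below 1 for 6 and above 1 for none, against 8.24% and 7.97% of all genes. The summed list was at 0.875 (0.837 to 0.915) in neutrophil nuclei and 0.887 in the others. Etv6 had 1009 CPM in BT2 and 1100 CPM in vehicle nuclei, a ratio of 0.917, and Runx1 had 961 and 1089 CPM, a ratio of 0.882 (0.792 to 0.981). Ikzf1 had 471 and 488 CPM. Nfkbia, the inhibitor induced by NF-kappaB, was the 1 of 16 past 2-fold, against 5.04% of all genes past 2-fold lower. It had 60.7 and 135 CPM, a ratio of 0.449 (0.292 to 0.668), against 0.646 in the others. Mxd1, a partner of Max, was at 0.636 (0.524 to 0.767) and Bcl6, a transcriptional repressor, at 0.725 (0.593 to 0.880), against 0.612 and 0.6004 in the others. Factors of the granulocyte lineage were uneven. Cebpa had 2 UMIs in BT2 and 5 in vehicle nuclei, and Gfi1 had none. Spi1, which encodes PU.1, had 62 and 158 UMIs, Cebpb 54 and 142, and Cebpd 18 and 34. Mxd1, Bcl6, Cebpa, Gfi1, Spi1, Cebpb and Cebpd were chosen after their values were seen.

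Immediate early genes were mixed, with 11 of 20 above 1, against 47.3% of all genes. Jun, a subunit of the AP-1 factor, was the 1 of 10 with at least 30 UMIs past 2-fold higher, against 1.91% of all genes. It had 77.4 CPM in BT2 and 35.7 CPM in vehicle nuclei, a ratio of 2.17 (1.37 to 3.42), against 1.36 in the others. Jun was chosen after its values were seen. Nr4a1, an orphan nuclear receptor, had 44.0 CPM in BT2 and 17.9 CPM in vehicle nuclei, a ratio of 2.46 (1.30 to 4.65), although from 21 and 23 UMIs, so it did not enter the genes with at least 30. Fosl1 had a ratio of 2.36 from 14 and 16 UMIs. Dusp5, a nuclear phosphatase of ERK, was the 1 past 2-fold lower and had 14.7 and 40.4 CPM, a ratio of 0.363 (0.139 to 0.802), against 1.09 in the others. Dusp1 and Fosl2 had intervals that include 1.

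RNA of other heart cells was present in the neutrophil nuclei of both libraries and differed between them. Fibroblast genes summed to 1176 CPM in BT2 and 845 CPM in vehicle nuclei, a ratio of 1.39 (1.26 to 1.54), against 1.43 in the other nuclei. Of 7 fibroblast genes with at least 30 UMIs, 4 were past 2-fold higher, against 1.91% of all genes. Col3a1 was at 2.48 and Dcn at 2.63. Macrophage genes summed to 1024 CPM in BT2 and 1806 CPM in vehicle nuclei, a ratio of 0.567, against 0.579 in the others. Endothelial genes were at 1.25 in neutrophil nuclei and 0.992 in the others, and cardiomyocyte genes at 0.895 and 1.08. Lymphocyte genes were at 0.679 in neutrophil nuclei and 0.671 in the others, and dendritic cell genes at 0.675 and 0.676.

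**Figure D4:**
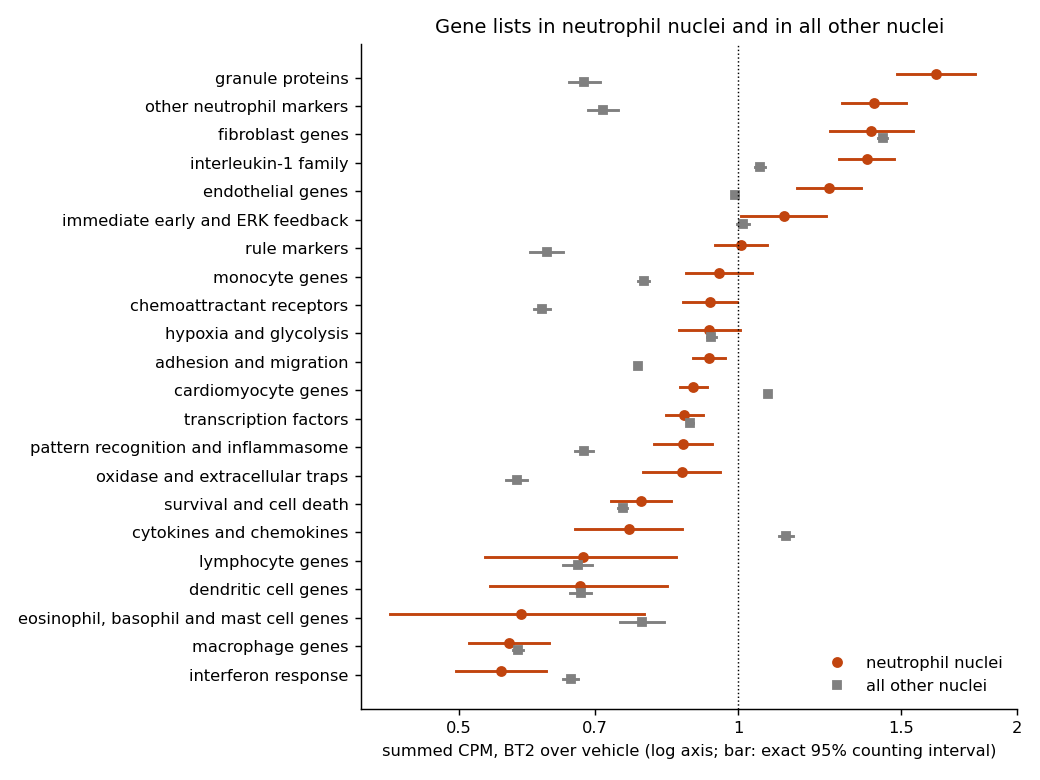
Ratio of BT2 to vehicle of the summed CPM of each gene list (x axis, log scale) in neutrophil nuclei and in all other nuclei, with exact 95% counting intervals, lists down the page. The granule, other neutrophil marker and interleukin-1 lists lie above 1 in neutrophil nuclei, at 1.64, 1.40 and 1.38, and the interferon list lies at 0.555; the fibroblast and macrophage lists are near 1.4 and 0.57 in both kinds of nuclei.

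The main differences were recomputed in the 87 BT2 and 301 vehicle nuclei with few UMIs of other cell types. There the ratio of the summed list was 0.508 for interferon genes, 0.590 for cytokines and chemokines, 1.23 for the interleukin-1 family, 1.28 for granule genes and 1.12 (0.989 to 1.26) for the other neutrophil markers. Fibroblast genes were at 1.35 and macrophage genes at 0.787, but the setting itself caps the UMIs of those lists in each nucleus. Those values are therefore shaped by the filter and only describe what it left. Ratios of single genes that lay further from 1 in this setting were those of Scube1 (3.30), Rnf213 (0.270) and Ccl6 (0.123). Col3a1 (1.11), a member of the capped fibroblast list, lay nearer to 1. Mmp8 was at 0.749, from 8 UMIs in BT2 and 32 in vehicle nuclei, and Vegfa at 1.96, from 17 and 26, so both crossed 1. The part of other cells' RNA in the remaining values was not tested. The median mitochondrial share was 0.886% in BT2 and 0.647% in vehicle neutrophil nuclei, against 0.322% and 0.390% in the other nuclei, and its part was not tested either.

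In whole AAR tissue the neutrophil genes were tested over the 8 libraries with edgeR's quasi-likelihood test and Benjamini-Hochberg adjustment over 15216 genes. The labels do not say that the 2 libraries per group are from separate rats, so p-values measure only the spread between these samples, which may be technical. In tissue RNA, fewer neutrophils and less RNA per neutrophil cannot be told apart. Of the 5 rule markers, 27 other neutrophil markers and 20 leading genes outside the rule, 48 different genes in all, 41 were tested. Total counts were 10397310 to 24480984 per library.

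At 4 h, most neutrophil genes fell in BT2 tissue. Of the 41, 24 were lower and 1 was higher at an adjusted p under 0.05, against 9.73% of all genes lower and 6.67% higher, and the median log2 fold change was -2.24 against 0.003 over all genes. Csf3r was at 15.3 and 20.9 CPM in the 2 BT2 libraries, against 53.6 and 127 CPM in the 2 vehicle libraries. Its log2 fold change was -2.32 ± 0.51 (SE; edgeR adjusted p = 0.0285). Cxcr2 was at 11.9 and 16.9 CPM in BT2 and 44.4 and 158 CPM in vehicle, a log2 fold change of -2.81 ± 0.69 (edgeR adjusted p = 0.0386). For both genes the groups did not overlap, but 2 libraries against 2 often separate without a difference. The share of all genes that separate in this way was not counted.

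Nlrp12 and Clec4d also fell, with log2 fold changes of -2.53 and -2.60 (edgeR adjusted p = 0.0449 and 0.0319), while Il1r2, at -2.69, missed the threshold (edgeR adjusted p = 0.0521). Mmp8 was at 13.6 and 17.4 CPM in BT2 and 38.6 and 134 CPM in vehicle tissue, a log2 fold change of -2.48 ± 0.54 (edgeR adjusted p = 0.0274). Trem1 fell most among the other markers, by 3.11 on the log2 scale (edgeR adjusted p = 0.0177). S100a8 fell by 2.06 (edgeR adjusted p = 0.0496), while S100a9, at 84.2 and 132 CPM in BT2 and 218 and 709 CPM in vehicle, had a log2 fold change of -2.10 and missed the threshold (edgeR adjusted p = 0.0522).

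Nek10 was the 1 gene that rose at 4 h. It was at 7.93 and 5.98 CPM in BT2 and 1.96 and 3.15 CPM in vehicle tissue, a log2 fold change of 1.41 ± 0.34 (edgeR adjusted p = 0.0287). Leaving out any 1 of the 4 libraries at 4 h ended this call. The count of 24 lower genes was 1 without BT2 replicate 1, 0 without BT2 replicate 2, 31 without vehicle replicate 1 and 4 without vehicle replicate 2. Vehicle replicate 1 lay below vehicle replicate 2 in every rule marker.

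At 24 h, the time of the nuclei, few of these genes passed the test. Of the 41, 5 were lower and 1 higher, against 20.7% of all genes lower and 18.9% higher. The count of lower genes depended on the fit: DESeq2 called 11 of the 41 lower, against 2901 of all 15216 genes. With the 24 h libraries alone edgeR called 15, and the count over all genes in that fit was not kept. The median log2 fold change was -1.01, and 34 of 41 were below 0. None of the 5 rule markers passed. At an unadjusted edgeR p under 0.05, 3 of the 5 were lower, against 3854 of all 15216 genes, and DESeq2 called 1 lower. Csf3r was at 19.8 and 43.3 CPM in BT2 and 83.6 and 65.2 CPM in vehicle tissue, a log2 fold change of -1.24 ± 0.48 (edgeR adjusted p = 0.0822). Il1r2 was at 1.81 and 4.40 CPM in BT2 and 18.9 and 6.63 CPM in vehicle tissue, with a log2 fold change of -2.03 (edgeR adjusted p = 0.0942).

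Those that fell at 24 h were Trem1, Trem3, Csf2rb, Cebpe and Clec7a. Trem3 was at 0.949 and 1.26 CPM in BT2 and 5.28 and 5.59 CPM in vehicle tissue, a log2 fold change of -2.28 ± 0.52 (edgeR adjusted p = 0.0111). Cebpe, a factor of granule formation with almost no nuclear UMIs, was at 0.407 and 0.775 CPM in BT2 and 3.23 and 2.82 CPM in vehicle tissue, a log2 fold change of -2.33 (edgeR adjusted p = 0.00695). Csf2rb, the receptor chain shared by GM-CSF and interleukin-3, fell by 1.36, Clec7a by 1.34 and Trem1 by 1.72. The count of lower genes was 0 without BT2 replicate 1, 7 without BT2 replicate 2, 2 without vehicle replicate 1 and 3 without vehicle replicate 2. Clec7a passed in none of these fits, and Trem1 only without BT2 replicate 2.

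Tmem71 rose at 24 h, to 9.72 and 9.58 CPM in BT2 tissue, against 4.75 and 4.52 CPM in vehicle tissue. Its log2 fold change was 1.06 ± 0.18 (edgeR adjusted p = 0.00302), and it passed without any 1 of the 4 libraries of that time. In the neutrophil nuclei Tmem71 was lower in BT2, at 222 and 285 CPM with a ratio of 0.778. S100a9 in tissue at 24 h was at 46.6 and 69.9 CPM in BT2 and 109 and 65.6 CPM in vehicle, with overlapping groups (log2 fold change -0.58, edgeR adjusted p = 0.444). Nek10 had a log2 fold change of 0.83 (edgeR adjusted p = 0.0804).

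**Figure D5:**
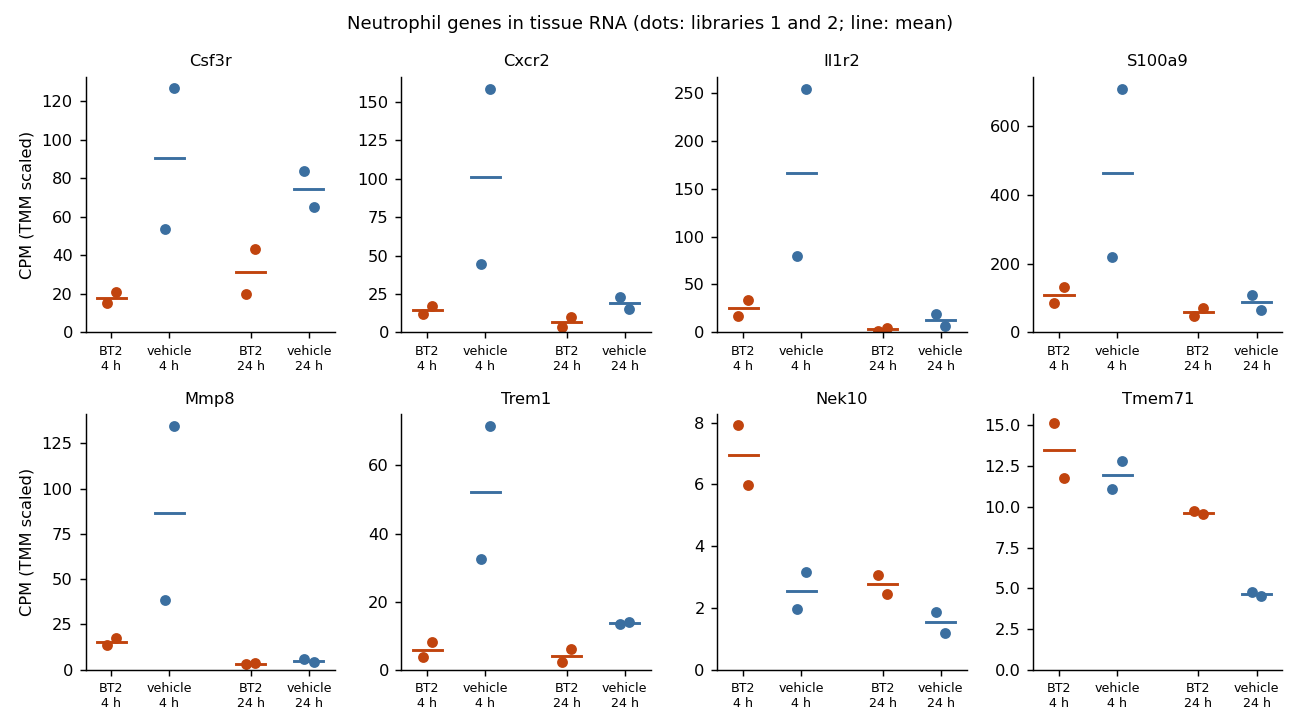
CPM per tissue library (y axis, linear scale) for Csf3r, Cxcr2, Il1r2, S100a9, Mmp8, Trem1, Nek10 and Tmem71 in BT2 and vehicle at 4 h and at 24 h (x axis), 1 point per library, 2 per group. At 4 h the BT2 points of Csf3r, at 15.3 and 20.9 CPM, lie below both vehicle points, and at 24 h the points of S100a9 overlap.

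Between the times, many neutrophil genes fell in vehicle tissue. At 24 h against 4 h, 21 of 41 were lower and 1 was higher in vehicle, against 23.8% and 23.3% of all genes, and 5 were lower and 1 higher in BT2, against 11.6% and 11.7%. In vehicle tissue Mmp8 had 5.66 and 4.14 CPM at 24 h and 38.6 and 134 CPM at 4 h, a log2 fold change of -4.14 ± 0.58 (edgeR adjusted p = 0.00148), and Il1r2 had a log2 fold change of -3.70 (edgeR adjusted p = 0.00788), which missed the threshold without vehicle 24 h replicate 2 (edgeR adjusted p = 0.0567). Cebpe rose in vehicle by a log2 fold change of 3.13 (edgeR adjusted p = 0.00337). In BT2 tissue Siglec5 rose by 2.04 (edgeR adjusted p = 0.032).

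With 1 library left out, the number of lower genes in vehicle was 7 without 24 h replicate 2, 10 without 4 h replicate 2, 11 without 24 h replicate 1 and 28 without 4 h replicate 1. The number in BT2 was 1, Nek10, without 4 h replicate 2 and 0 without any 1 of the other libraries, and the Siglec5 call was lost without any 1 of the 4 libraries. These comparisons share the vehicle and BT2 libraries with those above. The difference between the effects at 24 h and 4 h was tested as an interaction. At an unadjusted edgeR p under 0.05, 5 of the 41 genes were higher and 0 lower, against 2137 and 1799 of all 15216 genes. DESeq2 called 3 higher and 0 lower, against 1007 and 581 of all genes. After adjustment in edgeR the interaction passed in none of the 41 genes, against 4.72% of all genes higher and 2.43% lower. Without vehicle 4 h replicate 1 it passed in 7. The smaller tissue difference at 24 h than at 4 h was therefore not shown for single genes.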

How the data were processed

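The submitters deposited whole-number UMI counts per gene and nucleus, with Cell Ranger 8.0.1 per the file headers, and whole-number read counts per gene for tissue. Trim Galore, STAR, featureCounts and the build Rnor_6.0 are named in the submitters' processing notes; the labels' protocols name an RNeasy kit and TruSeq stranded mRNA libraries. Intron counting, strand setting and annotation: not given in the sources used here.

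UMIs were summed over the neutrophil nuclei of each library, and ratios of CPM have exact conditional Poisson intervals (Python 3.11.15, numpy 2.4.6, scipy 1.17.1, pandas 2.3.3, matplotlib 3.10.9). Shares with a UMI were compared after thinning to 500 UMIs. Doublets were not called, so nuclei with RNA of several cell types remain. Few UMIs of other cell types means at most 1% of UMIs on the cardiomyocyte list and caps on the fibroblast, endothelial and macrophage lists. This setting, the limit of 3000 UMIs, leaving out the richest nucleus and the common CPM floor were added after the data were seen. Monocyte and macrophage nuclei had at least 3 UMIs of Csf1r, Mrc1, C1qa, Cd163 and Gpnmb. Cardiomyocyte nuclei had at least 20 UMIs of Ttn, Ryr2 and Tnnt2.

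Tissue counts were tested with edgeR 4.0.16 in R 4.3.3 (quasi-likelihood, TMM scaling, filterByExpr, all 8 libraries, 4 residual degrees of freedom), which tested 15216 of 31580 genes at an adjusted p under 0.05; DESeq2 1.42.0 was an alternative. On simulated counts for the 24 h comparison (14905 genes), the test recovered 57% of 2-fold and 86% of 4-fold changes, and 22 of its 165 calls were false.

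The genes named were the markers, the 25 leading genes, the 12 highest and 12 lowest ratios, and in each of 23 lists the 4 most abundant members and the 2 highest and 2 lowest ratios; some genes that this rule names are not reported here. Of 395 list entries, 4 had no matching symbol. The members and lists were chosen with earlier results of these data known.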

Additional observations from a re-analysis of the deposited data

How the results depend on the processing

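The share of neutrophil nuclei stayed lower in BT2 than in vehicle under each of the choices tried. It was 3.44% against 7.31% (ratio 0.470) at a marker sum of at least 2 UMIs, 1.02% against 2.59% at 5 UMIs, 1.35% against 3.81% with no exclusion UMI, 1.27% against 3.65% without Csf3r, 2.398% against 7.17% at most 3000 UMIs, and 0.829% against 2.61% (ratio 0.318) with few UMIs of other cell types. The vehicle share alone was 4.23% at 1000 UMIs and 4.80% when thinned. Genes past 2-fold higher numbered 201 at a marker sum of 2 UMIs, 66 with few UMIs of other cell types, 236 with nuclei weighted equally and 391 at a minimum of 10 UMIs. Those past 2-fold lower numbered 205 with few UMIs of other cell types, 907 at 10 UMIs and 89 at a common CPM floor. Crossing 1 was counted here only for ratios past 2-fold under the rule as given. Ratios nearer to 1 that crossed it, Mmp8 and Vegfa among them, are not in this count. Those counted were Cdh20 (1.05 at a marker sum of 2), Reep1 (0.205 at a sum of 5, 0.564 without Csf3r), Xirp2 (0.994 without Csf3r) and Col1a1 (0.428 with few UMIs of other cell types). For Col1a1 that setting caps its own list, and 1 UMI was left in BT2 and 7 in vehicle nuclei. The cause was not tested. Over all alternatives, 1506 ratios of named genes moved by less than their counting interval, 218 by more and 5 crossed 1, and 298 tissue values stayed on the same side of the threshold while 204 no longer passed it.

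In tissue, genes lower at 4 h numbered 7 with no filter and 3 with the 4 h libraries alone (0 higher), and 0 to 31 lower and 0 to 0 higher with 1 library left out. At 24 h there were 3 lower and 2 higher with no filter, 11 lower in DESeq2, 15 lower with the 24 h libraries alone, and 0 to 7 lower with 1 library left out. For 24 h against 4 h in BT2, 1 was lower with no filter, and 0 to 1 were lower and 0 to 1 higher with 1 library left out. In vehicle, 12 were lower with no filter, 2 were higher in DESeq2, and 7 to 28 were lower and 1 to 2 higher with 1 library left out. The interaction gave 3 higher in DESeq2 and 0 to 7 with 1 library left out. Samples with the same replicate number did not deviate together over all genes (correlations -0.048 to 0.094). With 2 libraries per group this cannot exclude a pairing that acts on some genes. The labels state no pairing, so none was assumed. With the replicate block, 13 genes were lower at 24 h, against 5 without it, and 2 were higher between the times in vehicle. The interaction then had 1 higher and the other counts stayed within 1.5 times. No replicate stands behind the nuclear ratios, and under 30 UMIs their intervals span several-fold.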
